A study of Mus musculus with 8 samples.

Results

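The genes described here are 8 genes of the sperm flagellum and the axoneme, Spag6, Spag16, Tekt1, Tekt2, Odf2, Rsph1, Dnali1 and Foxj1, out of 17939 gene names carried by the tested probes. They were chosen by name, from their known roles, but with earlier results of these data known. Every array probe carrying 1 of these names was taken. RNA came from total testicular cells of wild type mice (4 arrays) and VRK1-deficient mice (4 arrays) at postnatal day 8, with 1 sample per 1-color Agilent array. The VRK1-deficient mice carried a gene trap insertion of the β-geo reporter in an intron of Vrk1 and had been backcrossed to C57BL/6. The allele is hypomorphic, so some full-length transcript remains, and it is present in every cell of the animal. The labels give no treatment for either genotype. The study asked how the loss of this mitotic kinase changes the testis transcriptome in the first wave of spermatogenesis. The methods call the samples biological replicates, without saying more on the animals they came from.

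The flagellum of a sperm cell is built around an axoneme, a ring of microtubule doublets around a central pair. Dynein arms slide the doublets against each other, and radial spokes carry signals from the central pair to the dyneins. Tektins run inside the doublets, and outer dense fibers surround the axoneme in sperm. In mice, flagella are assembled by haploid spermatids, which are not yet present at postnatal day 8, but many of these genes are already transcribed in spermatocytes and in other cells that carry a cilium. Fewer cells of a type and less RNA per cell cannot be told apart in RNA from whole testes.

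Of the 8 genes, 7 had probes under the current symbol (14 probes). Rsph1 was found under its older name Tsga2 through its RefSeq accession, and 1 further probe, for the gene on chromosome 2 that RefSeq now calls Spag6, was found in the same way, giving 16 probes in all. Both probes named Spag6 on the array lie on chromosome 16, and the accession of the first of these is now named Spag6l, a close relative of Spag6. The probes differ in what they can read, and the sequences that matter for the results below are shown for this reason. The array files give the 60-base probes with their positions on mouse build mm7. Bases 1 to 30 are shown, except for the Tekt1 probe, which is shown whole because it joins parts of the genome 6105 bases apart from end to end and so reads spliced RNA. Capitals mark AATAAA, the letters of the common polyadenylation signal, which 4.78% of all probes on the array hold on the strand shown and 4.25% on the opposite strand. The 4 Odf2 probes are given in order along the gene, and the 3 Spag16 probes show how unlike the targets of probes under 1 name are. The 2 Spag6 probes shown carry different names on the array and lie on chromosomes 16 and 2.
Tekt2 (chr4:125766833-125766892, minus strand): actgagtccactcaaaatctgccagctgga
Tekt1 (chr11:72427327-72433431, minus strand): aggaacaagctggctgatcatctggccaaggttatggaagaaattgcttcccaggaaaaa
Odf2, AK086843 (chr2:29902312-29902371, plus strand): ggctgaAATAAAaatgctcccttaatatta
Odf2, NM_013615 (chr2:29929770-29929829, plus strand): cacttcctttttcttggctgccgatttctg
Odf2, BC057001, first (chr2:29938198-29938257, plus strand): ccacattaggtaccagattttgaaatccct
Odf2, BC057001, second (chr2:29938556-29938615, plus strand): gctacgaatgtcatgaaAATAAAtacattg
Spag16, AK083083 (chr1:70167702-70167761, plus strand): taaaactgaagcctttggttttacttccgg
Spag16, NM_029160 (chr1:70238666-70238725, plus strand): acgtttctgcagcaaaatttgactacaagc
Spag16, NM_025728 (chr1:70966791-70966850, plus strand): tagcacaccctgatgcaaagggcattccct
Spag6, NM_015773 (chr16:16301686-16301745, minus strand): ggtttggatgctaatgcagaagctaagata
Spag6, NM_001001334 (chr2:18810659-18810718, plus strand): aagtggtggacttaaaaagatccaagagat
AATAAA starts at base 7 of the AK086843 probe and at base 18 of the second BC057001 probe of Odf2, and none of the other 14 probes of the 8 genes holds it on the strand shown. Whether a probe lies in a coding or an untranslated exon was not determined, since no annotation of build mm7 was used here.

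The 8 arrays lay on 2 slides, with replicates 1 and 2 of both genotypes on slide 1 and replicates 3 and 4 on slide 2. Wild type and VRK1-deficient samples took different positions on each slide, so position and genotype cannot be told apart. Between 63.6% and 69.5% of spots were well above background on each array. The deposited signals are intensities, and all levels below are log2 intensities taken against the 75th percentile of the same array, so that a level of 0 lies at that percentile. Levels of different probes are not compared as amounts of RNA, since probes differ in how strongly they bind, and "brightest" says only which probe gave the highest mean signal. Vrk1 itself was lower on every VRK1-deficient array, at 6.23% and 6.54% of the wild type level by its 2 probes. All 10 of 10 germ cell markers and all 10 of 10 markers of meiotic prophase had lower mean levels in VRK1-deficient testes, where 45.5% of all tested probes had lower means. Of these, 1 and 3 passed the test described below, beside 1.97% of all tested probes called lower. Dazl, Rnf17 and Mov10l1 of the germ cell markers were among the genes the study listed from these same arrays. So were Sycp2, Syce1, Smc1b, Stag3 and Mei1 of the meiotic markers, which include the 3 called. These counts are therefore no independent evidence of a direction. The summed level of the germ cell markers, on the linear scale with the 75th percentile at 1, ranged from 33.8 to 90.6 on wild type arrays and from 24.1 to 40.3 on VRK1-deficient arrays. Its lowest wild type value was that of replicate 1, which therefore lay inside the VRK1-deficient range.

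Most of these genes gave a measurable signal at postnatal day 8. Under the names on the array and the Tsga2 probe of Rsph1, 7 of the 8 genes were well above background on at least 1 array, and Spag6 was so only by its chromosome 2 probe, which was found through its accession. The brightest probes of Tekt1, Tekt2, Odf2 and Rsph1 were well above background on all 8 arrays. Dnali1, which encodes a light intermediate chain of the inner dynein arms, passed on 3 wild type and 4 VRK1-deficient arrays. Foxj1, the transcription factor that turns on genes of motile cilia, passed on 4 wild type and 2 VRK1-deficient arrays. Spag16, a protein of the central pair, passed on 3 wild type arrays and on 0 VRK1-deficient arrays. The other 2 Spag16 probes passed on no array. Spag6, also a protein of the central pair, was well above background on no array by both probes that carry its name, and its chromosome 2 probe passed on 2 wild type arrays. Over all 16 probes, 8 passed on all 8 arrays and 4 on none.

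**Figure D1:**
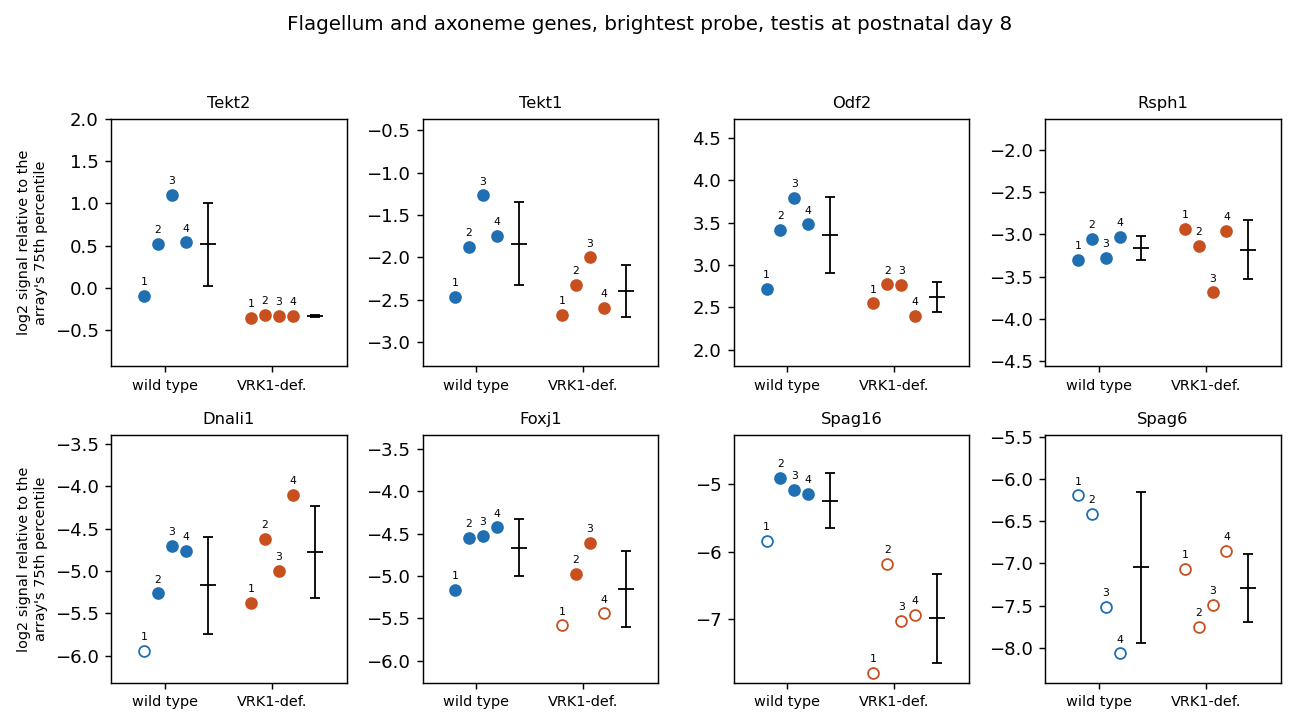
Level of the brightest probe of each of the 8 genes on each array, as log2 signal over the 75th percentile of its array (vertical axis; each panel has its own range), with wild type in blue and VRK1-deficient in orange. Filled points were well above background and open points were not, small digits give the replicate, and bars show mean ± SD (n = 4). The 4 VRK1-deficient Tekt2 points lie together below all wild type points, and wild type replicate 1 is the lowest wild type point in every panel but that of Spag6.

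Genotypes were compared with limma over 26948 probes, those detected well above background by 4 or more arrays, and calls were made where the adjusted p fell under 0.05. None of the 6 tested genes was called, against 3.64% of all tested probes. Tekt2 and Odf2 had an unadjusted p under 0.05 (2 of 6), a level that 28.8% of all tested probes reached, and the methods' t-test gave the same number at its own threshold (2 of 6, against 26.2% of probes) and 0 after adjustment. Tekt2, Odf2, Tekt1, Foxj1 and Rsph1 had lower mean levels in VRK1-deficient testes and Dnali1 a higher one, where 45.5% of all tested probes were lower. The median log2 change of the 6 genes was -0.52, beside 0.04 for all tested probes. The levels of Tekt2 alone did not overlap between genotypes (1 of 6, against 16.7% of probes in either direction and 7.28% in the lower direction).

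Tekt2 encodes tektin 2, a filament protein inside the doublets. Its wild type levels were -0.10, 0.53, 1.10 and 0.54 in replicates 1 to 4. Its VRK1-deficient levels were -0.35, -0.32, -0.33 and -0.33. All 4 VRK1-deficient samples lay within a narrow band just below the lowest wild type sample, which was replicate 1. The means were 0.52 ± 0.49 and -0.33 ± 0.012 (SD, n = 4), and the spread of the wild type samples was therefore much the wider. The log2 change was -0.85 (SE 0.22, 95% interval -1.34 to -0.36), so the VRK1-deficient level was 55.5% of wild type, with an adjusted p of 0.0594 in limma. The difference was -0.55 on slide 1 and -1.15 on slide 2. Tekt2 was called under 6 alternatives (adjusted p between 0.00411 and 0.0495), and the adjusted p reached 0.508 across all alternatives. The 6 alternatives called between 916 and 7641 of all tested probes, in place of 982 in the main fit.

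Tekt1 encodes tektin 1, a relative of tektin 2 with the same kind of location. By its brightest probe (chr11:72426295-72426354, minus strand), the wild type levels were -2.46, -1.88, -1.27 and -1.75, and the VRK1-deficient levels were -2.68, -2.32, -2.00 and -2.60. Wild type replicate 1 lay among the VRK1-deficient samples, and the other wild type samples lay above all of these. The log2 change was -0.56 (SE 0.25, 95% interval -1.13 to 0.01, adjusted p = 0.178 in limma). The probe that reads spliced RNA differed in the same direction, by -0.33 (SE 0.19, adjusted p = 0.269 in limma). Both tektins thus had lower mean levels, and neither passed the test.

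Odf2 encodes outer dense fiber protein 2, which also forms appendages of the centriole outside the germ line. Its 4 probes did not behave alike. The brightest probe, for NM_013615, had wild type levels of 2.72, 3.42, 3.79 and 3.48. It had VRK1-deficient levels of 2.55, 2.77, 2.76 and 2.40. Again wild type replicate 1 alone fell within the VRK1-deficient range. The log2 change was -0.73 (SE 0.22, 95% interval -1.22 to -0.24), or 60.2% of the wild type level, with an adjusted p of 0.0757 in limma. The difference was -0.41 on slide 1 and -1.05 on slide 2.

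The BC057001 probes of Odf2, whose sequences are given above, lie 8428 and 8786 bases downstream of the NM_013615 probe and 358 bases from each other. The first had wild type levels of -0.13, -0.21, -2.60 and -0.31 and VRK1-deficient levels of -0.04, -0.14, -0.46 and -0.18. The second had wild type levels of 0.84, 0.64, -1.49 and 0.45 and VRK1-deficient levels of 0.81, 0.69, 0.52 and 0.78. On both probes wild type replicate 3 stood far below the other 7 arrays, although it had the highest level of the NM_013615 probe. The log2 changes were 0.61 (SE 0.50, adjusted p = 0.435) and 0.59 (SE 0.45, adjusted p = 0.406) in limma. Without that array they were 0.01 and 0.05. The AK086843 probe, 27458 bases upstream of the NM_013615 probe, had levels between -4.07 and -2.94 on wild type and between -3.91 and -3.44 on VRK1-deficient arrays (log2 change 0.04, SE 0.24, adjusted p = 0.935 in limma). Averaged over its 4 probes, Odf2 changed direction, to a log2 change of 0.13 (adjusted p = 0.747 in limma). That average includes the low wild type replicate 3 of both BC057001 probes and was not computed without it. Without that array the AK086843 probe changed by -0.04, so the lower level of Odf2 rests on the NM_013615 probe alone.

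**Figure D2:**
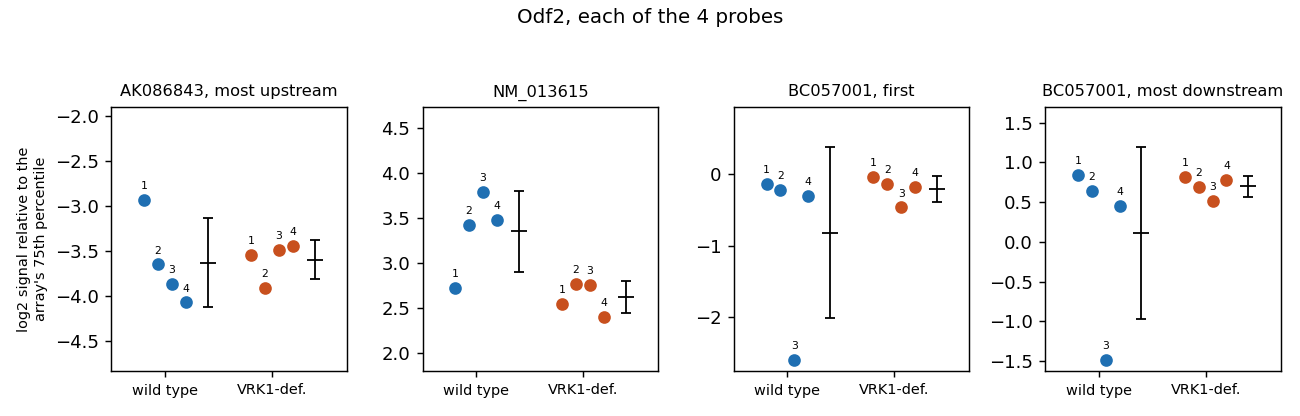
Level of each of the 4 Odf2 probes on each array, in order along the gene from left to right, as log2 signal over the 75th percentile of its array (vertical axis; each panel has its own range). Points, colors, digits and bars are as in the plot of the 8 genes. Wild type replicate 3 is the highest point of the NM_013615 probe at 3.79 and the lowest of both BC057001 probes at -2.60 and -1.49.

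Rsph1, a protein of the radial spoke head (chr17:29464288-29464449, minus strand), showed no difference larger than its spread. Its wild type levels were -3.30, -3.06, -3.27 and -3.03, and its VRK1-deficient levels were -2.94, -3.14, -3.69 and -2.96. The VRK1-deficient samples held both the highest and the lowest of the 8 values. The log2 change was -0.01 (SE 0.18, adjusted p = 0.965 in limma), and the 95% interval ran from -0.41 to 0.39. The sign of so small a change turned under 6 alternatives.

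Dnali1 (chr4:124501256-124503678, minus strand) was the only tested gene of the 6 with a higher mean level in VRK1-deficient testes. Its wild type levels were -5.95, -5.26, -4.70 and -4.76, the first of which was not well above background. Its VRK1-deficient levels were -5.37, -4.62, -5.00 and -4.10. The groups overlapped over most of their ranges, and the log2 change was 0.40 (SE 0.33, 95% interval -0.36 to 1.15, adjusted p = 0.449 in limma).

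Foxj1 (chr11:116439945-116440004, minus strand) was close to background. Its wild type levels were -5.17, -4.54, -4.52 and -4.43. Its VRK1-deficient levels were -5.58, -4.97, -4.61 and -5.44, and the lowest 2 of these were not well above background. The log2 change was -0.49 (SE 0.24, 95% interval -1.04 to 0.06, adjusted p = 0.219 in limma). With a normexp background correction it was 0.09, in the other direction.

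Spag16 was well above background on too few arrays to be tested. By the NM_025728 probe, the wild type levels were -5.84, -4.91, -5.08 and -5.14, of which the first was not well above background. The VRK1-deficient levels were -7.80, -6.18, -7.03 and -6.94, and none was well above background. All VRK1-deficient values lay below all wild type values, but values not well above background are not measured levels. No fold is given for Spag16, since the lowest signal well above background on an array does not bound the signals that failed. On VRK1-deficient replicate 4 that lowest signal was -5.56, while Foxj1 at -5.44 was not well above background. Spag16 was among the genes the study listed from these same arrays, so its levels are no independent evidence of a direction. With a normexp correction the difference in means was 0.02 in place of -1.74. The signals of Spag6 were not well above background in either genotype by the probes carrying its name, and no fold is given. The chromosome 2 probe of Spag6 had levels between -6.19 and -5.75 on wild type and between -7.15 and -5.82 on VRK1-deficient arrays, and the groups overlapped.

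These comparisons depended on single wild type arrays. In all 7 genes detected by their brightest probe, wild type replicate 1 had the lowest wild type level, whereas it was the lowest wild type array for 30.9% of all tested probes. Without it, 3 of the 6 tested genes were called, Tekt2 at -1.05 (adjusted p = 0.00411), Odf2 at -0.94 (adjusted p = 0.00467) and Tekt1 at -0.77 (adjusted p = 0.0275), all by limma. This was against 28.4% of all tested probes, or 7641 probes in place of 982. Leaving out any other array called 0 of the 6 genes and between 3 and 68 probes. Without wild type replicate 3 the changes were smaller, at -0.65 for Tekt2, -0.59 for Odf2 and -0.37 for Tekt1. The summed level of the germ cell markers in wild type replicates 1 to 4 was 33.8, 68.4, 90.6 and 89.8. The sum for meiotic prophase markers was 16.4, 34.5, 42.6 and 44.5, and it was between 10.5 and 16.9 on the VRK1-deficient arrays. Wild type replicate 1 was thus the lowest wild type array for both marker lists and for Tekt2, Tekt1 and the NM_013615 probe of Odf2, and the part of these markers in the results was not tested.

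**Figure D3:**
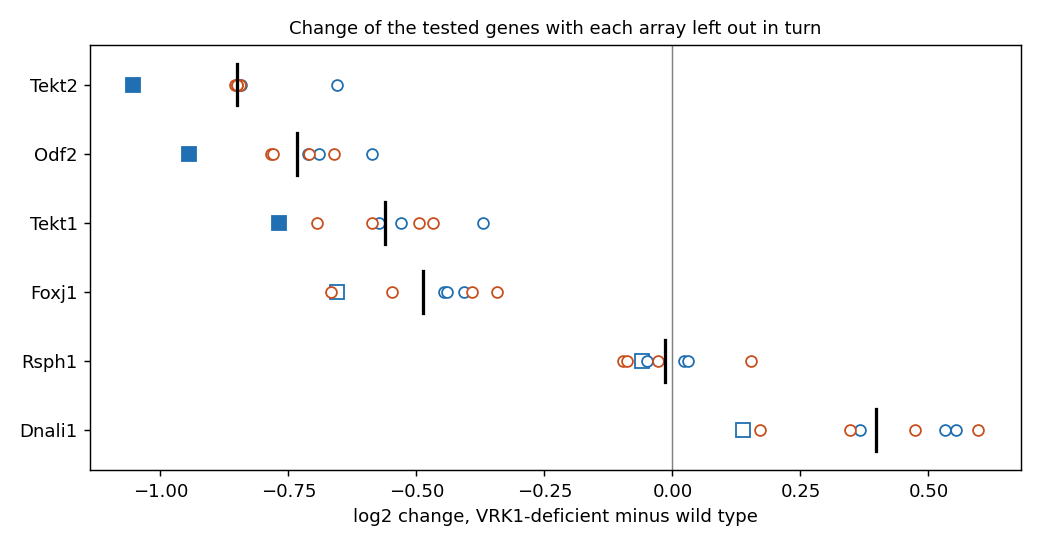
Log2 change (VRK1-deficient minus wild type, horizontal axis) of the 6 tested genes, with black bars for all 8 arrays and points for the fit without each array in turn (blue, a wild type array left out; orange, a VRK1-deficient array left out). Squares mark the fit without wild type replicate 1, and filled symbols an adjusted p under 0.05. Only the 3 squares of Tekt2, Odf2 and Tekt1 are filled, at -1.05, -0.94 and -0.77.

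The profile of Tekt2, the member with the smallest p, was compared with those of all tested probes over the 8 arrays, each centered on its own mean. The named genes with the smallest root mean square difference were Sec22c (0.085), Camta1 (0.088) and Atp2b2 (0.092, in log2 units). Among the other tested flagellum genes, the NM_013615 probe of Odf2 came next to Tekt2 (0.138), with 0.197% of tested probes closer. Tekt1 (0.235) had 2.85% of tested probes closer and Foxj1 (0.371) had 14.0%. Rsph1 (0.559) and Dnali1 (0.722) lay among the bulk of probes, with 43.0% and 74.4% closer.

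To place these genes among others of the same structures, 117 further genes were taken in 8 lists by role. Of these, 106 had a probe, and by the brightest probe 16 were well above background on no array and 81 were tested. Lower levels in VRK1-deficient testes were seen for 53 genes and higher levels for 28, with a median log2 change of -0.20. Of the 81 genes, 4 were called lower (against 1.97% of all tested probes) and 1 was called higher (against 1.68%). At an unadjusted p under 0.05, 26 were lower and 5 higher, beside 14.7% and 14.1% of all tested probes. The groups did not overlap in 14 of the 81 genes, close to the 16.7% of all tested probes, so a lack of overlap does not set a gene apart.

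Genes of the dynein arms were lower in 8 of 8 tested genes, beside 45.5% of all tested probes, with a median of -0.46, and 1 was called. That gene was Dnah8, a heavy chain of the outer arm, with wild type levels of -1.07, -0.71, -0.41 and -0.66 and VRK1-deficient levels of -1.77, -1.31, -1.63 and -1.66. Its groups did not overlap, and its log2 change was -0.88 (SE 0.16, adjusted p = 0.0428 in limma). The brightest gene of the list, Dnah2, had a log2 change of -0.22 (adjusted p = 0.349 in limma). Genes of dynein arm assembly were lower in 3 of 6 tested genes (median 0.00, 0 called). The brightest of these, Dnaaf5, had a log2 change of -0.41 (adjusted p = 0.0658 in limma).

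Of the central pair genes, only 4 of 9 with a probe were tested, 2 of which were lower (median -0.21). Stk36, a kinase needed for the central pair, was called, with wild type levels of -0.72, -0.59, -0.27 and -0.45 and VRK1-deficient levels of -1.12, -1.01, -1.19 and -1.49. The groups did not overlap (log2 change -0.69, SE 0.15, adjusted p = 0.0474 in limma). The brightest central pair gene, Spef1, had a log2 change of 0.32 (adjusted p = 0.334 in limma). Of the radial spoke and nexin-dynein genes, 5 of 11 were lower and 0 were called (median 0.09), and the brightest, Rsph3a, had a log2 change of 0.28 (adjusted p = 0.236 in limma).

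Of the tektins and other proteins inside the doublets, 11 of 16 were lower (median -0.33) and 1 was called. That gene was Ribc2, at -3.40, -2.55, -2.45 and -2.36 on wild type arrays and -4.09, -3.57, -3.68 and -3.81 on VRK1-deficient arrays. Its groups did not overlap (log2 change -1.10, SE 0.23, adjusted p = 0.0474 in limma). The brightest gene of the list, Mns1, had a log2 change of -0.36 (adjusted p = 0.199 in limma). Of the outer dense fiber and fibrous sheath genes, 6 of 7 tested were lower and 0 were called (median -0.26), and Ropn1l, the brightest, had a log2 change of -0.73 (adjusted p = 0.111 in limma). Odf1 and Akap4, structural proteins of the outer dense fibers and of the fibrous sheath, in this order, were well above background on no array.

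Genes listed for transcription and the making of many cilia, the role of Foxj1, were lower in 8 of 8 tested genes. This was beside 45.5% of all tested probes, and the median was -0.37. Not all of the 8 act in transcription, since Spag1 (-0.46) was in this list too, and Rfx2 lay at -0.003. The 1 called gene was Ccno (named Ung2 on the array), a cyclin-like gene needed for cells with many cilia. Its wild type levels were -0.15, 0.72, 1.20 and 0.78, and its VRK1-deficient levels were -1.72, -0.64, -0.56 and -1.17. The groups did not overlap (log2 change -1.66, SE 0.33, adjusted p = 0.0454 in limma). Rfx1, the brightest gene of the list, had a log2 change of -0.09 (adjusted p = 0.716 in limma). Genes of intraflagellar transport, which build every kind of cilium, were lower in 10 and higher in 11 of 21 tested genes (median 0.04). Dync2li1, a subunit of the dynein of this transport, was the only gene of the 8 lists called higher. Its wild type levels were -0.06, -0.11, 0.06 and -0.17 and its VRK1-deficient levels were 0.52, 0.40, 0.33 and 0.45 (log2 change 0.49, SE 0.10, adjusted p = 0.0474 in limma). The brightest gene of the list, Ift20, had a log2 change of 0.07 (adjusted p = 0.703 in limma).

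Without wild type replicate 1, 30 of the 81 genes were called in either direction, beside 28.4% of all tested probes in either direction. Of these genes, 27 were lower and 3 higher, and the share of all probes in each direction was not computed for this fit. Leaving out each other array in turn called 0 of the 81 genes, and between 3 and 68 of all 26948 probes. The 5 genes kept their direction in these 7 fits, with adjusted p-values between 0.06 and 0.149 in limma. With the slide as a block, 3 genes were called.

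**Figure D4:**
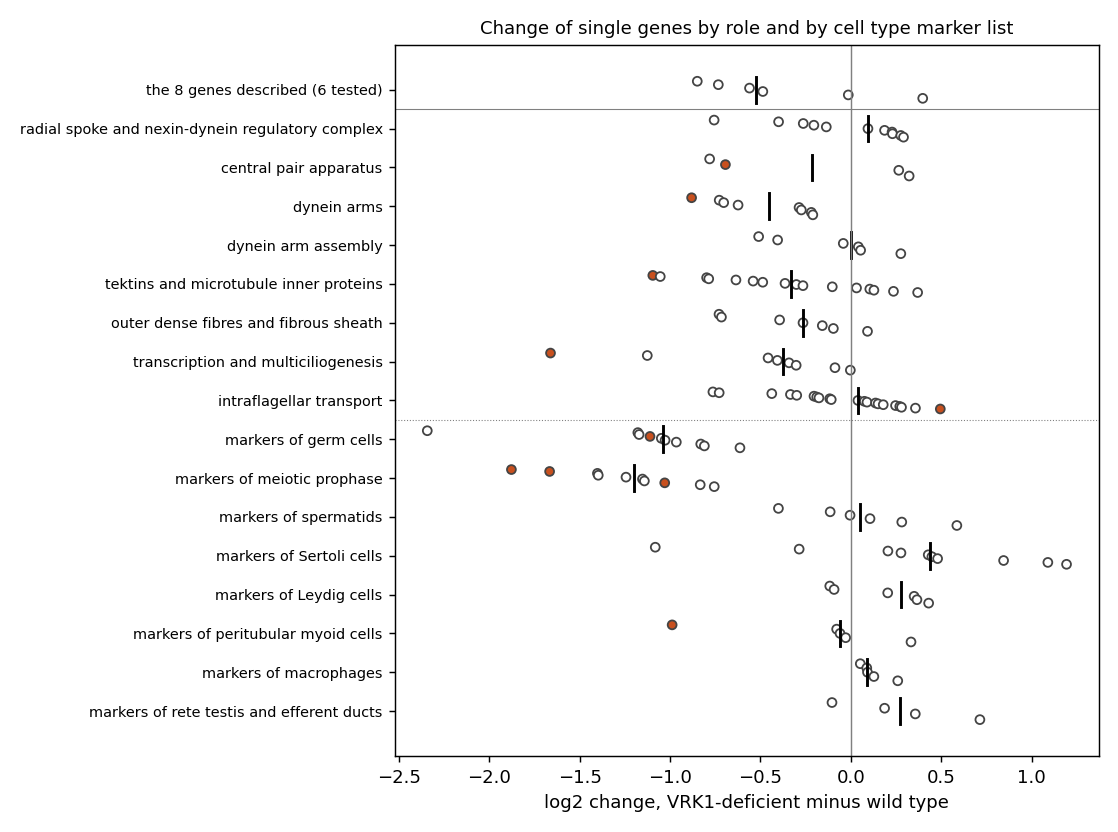
Log2 change (VRK1-deficient minus wild type, horizontal axis) of each tested gene, in rows for the genes described here, for the 8 role lists and, under the dotted line, for markers of cell types. Filled points have an adjusted p under 0.05, and black bars are medians. The medians of the dynein arm (-0.46) and transcription (-0.37) rows lie left of 0, that of intraflagellar transport (0.04) lies close to it, and those of germ cell (-1.04) and meiotic prophase markers (-1.20) lie furthest to the left.

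Markers of other cells were measured beside these genes. Of 8 spermatid markers, 6 were well above background on all 8 arrays, among them Prm1, and 2 (Acrv1 and Capza3) on none. Since spermatids are not yet present at this age, a signal well above background does not show which cells it came from. The tested spermatid markers were lower in 3 and higher in 3 genes with 0 called, and the summed level of all 8 markers was 0.761 to 0.900 on wild type and 0.700 to 0.919 on VRK1-deficient arrays. The ducts that lead out of the testis hold cells with motile cilia. Of 7 markers of the rete testis and efferent ducts, Pax8 and Emx2 were well above background on no array, and of the 4 tested 1 was lower and 3 were higher, with 0 called. The summed level of all 7 was 0.352 to 0.635 on wild type and 0.604 to 0.664 on VRK1-deficient arrays. Lhx1, the brightest of them, weighs most in this sum, which therefore does not describe the list as a whole. Its wild type levels were -1.26, -1.99, -2.29 and -2.72. Its VRK1-deficient levels were -1.17, -1.44, -1.36 and -1.46 (log2 change 0.71, adjusted p = 0.127 in limma). Sertoli cell markers were lower in 2 and higher in 8 of 10 genes with 0 called, with summed levels of 76.5 to 125.6 and 109.7 to 135.5. Leydig cell markers were lower in 2 and higher in 4 genes, and macrophage markers were higher in 5 of 5, with 0 called in both. Of the peritubular myoid markers, 4 of 5 were lower and Cnn1 was called (log2 change -0.99, adjusted p = 0.0444 in limma). The part of any of these cell types in the levels of the flagellum genes was not tested.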

How the data were processed

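Cy3-labeled RNA of whole testes was measured on 1-color Agilent Whole Genome Mouse arrays. The authors used Agilent Feature Extraction 9.5.3.1, which subtracts background, and deposited its processed signals, which are intensity values on a linear scale without scaling across arrays. The deposited series table held the same values (0 unequal values per array) and was used only for the fit without scaling. The methods name GeneSpring and a t-test for the later steps.

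Outlier spots (58 to 134 per array) were left out, and 0 spots other than controls were saturated. Intensities were taken to log2 and centered on the 75th percentile of their array, and spots of a probe were averaged. Of 41174 probes, the 26948 detected well above background by 4 or more of the 8 arrays entered limma 3.58.1 (lmFit and eBayes, R 4.3.3), with genotype as the only term and Benjamini-Hochberg adjustment over all tested probes. Changes are VRK1-deficient minus wild type, and a gene was represented by its brightest probe under its own symbol (for Rsph1, under its accession). The number of arrays limits the precision. The fit was tested on simulated data. Their noise was independent for each probe and array, so they do not bear on deviations shared by a whole array, such as wild type replicate 1. Probes were paired with genes through the accession (22951 probes), symbol (6659) or synonym (3109) in a RefSeq table of another build, used for names only. Another 8455 probes kept the name printed on the array. The software was Python 3.11.15 with numpy 2.4.6, pandas 2.3.3 and matplotlib 3.10.9.

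The members and the lists were chosen with earlier results of these data known. The genes named are all 8 members, in each role list the brightest tested gene and up to 3 called genes, and the 3 genes named through RefSeq whose profile was most like that of the member with the smallest p. Acrv1, Capza3, Prm1, Pax8, Emx2, Lhx1, Odf1, Akap4, Cnn1, Spag1 and Rfx2 were named after their values were seen. Newer names of 4 list genes were matched to older ones after the files were opened. The choice of the probe under its own symbol to represent Spag6 was also made then. Of 117 list genes, 11 were not matched to a probe, and Spag6l was among these because its probe is counted under Spag6.

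Alternatives were quantile normalization, normexp with an offset of 50, no scaling, testing all probes, testing those well above background on all 8 arrays, blocks for slide or for replicate number, single slides, fits without 1 array, the methods' t-test, an intensity trend with robust variances, averaging the probes of each gene, and another detection flag. Histology, flow cytometry and qRT-PCR were not analysed here.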

Additional observations from a re-analysis of the deposited data

Results flagged for a closer look

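Among 22 groups of 4 arrays examined (each a probe of the 8 genes in 1 genotype, with at least 1 array well above background), 3 had a single array standing apart by Dixon's ratio of the gap to the range, where chance gives about 1 in 20. Wild type replicate 3 was low on both BC057001 probes of Odf2, at -2.60 (ratio 0.929) and -1.49 (ratio 0.832). Over all tested probes, that array stood apart low among the wild type arrays in 2.09%, and lay more than 1 log2 unit below the next in 0.72%. Wild type replicate 1 was low for Foxj1, at -5.17 (ratio 0.840), and stood apart low in 1.72% of all tested probes.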

How the results depend on the processing

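The median change of the tested genes stayed below 0 in 18 of 18 alternatives, at -0.12 with normexp, -0.23 with the mean of all probes and -0.71 to -0.41 with each array left out. The filter on all 8 arrays removed Dnali1 and Foxj1, so its median (-0.65) covers only the remaining genes. Dnali1 kept its direction in 19 of 19. Tekt2 alone of the tested genes was called with normexp (-0.76), without scaling (-1.03), with the filter on all 8 arrays (-0.85) and with an intensity trend (-0.85). Over all tested probes, these fits called 1386, 916, 1376 and 1920. Rsph1 turned to 0.0146 with quantile normalization, 0.15 with normexp and 0.14 on slide 1, Foxj1 to 0.0915 and Spag16 to 0.0202 with normexp, and Odf2 to 0.13 with the mean of its probes. Probes called numbered 17 with no filter, 626 with the slide as a block, 3 on slide 1, 217 with the t-test and 1920 with an intensity trend, in place of 982. Of the 81 other axoneme genes, 0 were called with no filter, 3 with the slide block, 0 on slide 1 and 1 with the t-test, in place of 5. The causes were not tested.

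Leaving out 1 array gave 3 to 7641 probes, 0 to 3 of the 6 genes and 0 to 30 of the other axoneme genes called, the highest each time without wild type replicate 1. The changes ranged from -1.05 to -0.65 for Tekt2, -0.94 to -0.59 for Odf2, -0.77 to -0.37 for Tekt1, -0.67 to -0.34 for Foxj1, 0.14 to 0.60 for Dnali1 and -0.10 to 0.15 for Rsph1.

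Same-numbered samples did not deviate together in every pair (correlations 0.468, 0.0735, 0.188 and -0.139), so the numbers were not taken as pairs. With replicate number as a block, 2280 probes, 1 of the 6 genes (Tekt2, -0.85, adjusted p = 0.048 in limma) and 11 other axoneme genes were called.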
